A study of Mus musculus with 12 samples.

Results

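The osteocyte line MLO-Y4 was compared between dense and sparse culture. Of the 12 arrays in the study, 6 hold this line, 3 labelled high and 3 labelled low, and all 5030 spots of each array entered the comparison. MLO-Y4 cells come from a mouse in which the osteocalcin promoter drives T antigen, and both groups share that origin. The labels set osteocytes coupled by gap junctions against osteocytes without them. They do not say which group is which; dense culture, named high, was taken here for the coupled one, since the other is named low, and no cell number or culture time is given in the sources used here. The other 6 arrays hold the osteoblast line 2T3, from a mouse in which the BMP-2 promoter drives SV-40 T antigen, as 3 arrays named C0 and 3 named low. The labels contrast 2T3 at low density with confluent 2T3, and C0 was read as the confluent group. Each line is 1 cell line. Arrays carry the numbers 1 to 3 within a group, but no label ties a number to a culture of its own. The p-values thus rest on the spread between arrays alone, and that spread may be technical.

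Osteocytes are bone cells embedded in mineral, which form a network by touching one another through long cell processes. Gap junctions at these contacts are channels that pass small molecules between neighbouring cells. Interferon-stimulated genes are a large set that cells switch on after type I or type II interferon reaches its receptor. Their products include antiviral proteins of the Ifit and Mx families, guanylate-binding proteins, the ubiquitin-like protein Isg15 and the parts of the machinery that shows peptides on MHC class I molecules. Many carry in their promoter an interferon-stimulated response element, whose core is a repeated GAAA spaced by a pair of bases.

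The gene group that stood highest in the dense cultures was this interferon and antigen presentation group, so the promoters of 4 of its members are shown first. Each is the 160 bases before the transcription start in RefSeq's annotation of build GRCm38.p6, on the strand of the gene, with matches to GAAANNGAAA on either strand in capitals. Isg15 and Gbp2 encode effectors of the response, Ifit3 an antiviral protein and B2m the light chain of MHC class I. Their windows lie at chr4:156200819-156200978 (minus strand), chr3:142620503-142620662, chr19:34583369-34583528 and chr2:122147527-122147686 (plus strand for the last 3).
Isg15: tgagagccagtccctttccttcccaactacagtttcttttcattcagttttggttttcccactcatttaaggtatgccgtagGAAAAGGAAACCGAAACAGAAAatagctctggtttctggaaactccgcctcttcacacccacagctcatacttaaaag
Ifit3: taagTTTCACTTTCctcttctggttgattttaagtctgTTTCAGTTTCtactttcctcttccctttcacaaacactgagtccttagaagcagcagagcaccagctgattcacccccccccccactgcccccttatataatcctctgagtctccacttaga
B2m: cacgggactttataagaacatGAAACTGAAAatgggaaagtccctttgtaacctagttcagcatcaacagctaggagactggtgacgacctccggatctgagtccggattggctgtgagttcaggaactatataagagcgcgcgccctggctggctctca
Gbp2: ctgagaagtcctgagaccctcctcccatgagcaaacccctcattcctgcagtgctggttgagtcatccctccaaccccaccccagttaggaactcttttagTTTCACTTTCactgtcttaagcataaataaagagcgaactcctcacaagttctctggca
The window of Isg15 holds 3 overlapping matches, that of Ifit3 holds 2, and those of B2m and Gbp2 hold 1 each. Within the 250 bases before the start, 978 of 32851 windows in the RefSeq table had a match on either strand (2.98%), and by gene 936 of 27025 (3.46%). Among genes measured on the array the share was 147 of 3649 with a window (4.03%). Of the 37 measured genes of the interferon list, 28 had a window and 10 of these a match (35.7%). The 4 printed windows all hold a match, while most of the list's windows do not, so they do not represent the list. A match describes the letters of the window and is neither a shown binding site nor a cause. The list was drawn up from genes known to answer to interferon, and with earlier results of these data known.

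The arrays are 1-colour spotted arrays, and their deposited values are linear background-subtracted intensities. On the MLO-Y4 arrays the median intensity ran from 9 to 28 and the total from 630205 to 1548101. The size of the lowest value on an array served as its detection limit, and 37.9% to 64.5% of spots were above it. The arrays numbered 1 had limits of 47.2 (low) and 47.8 (high) in normalized units, against 11.3 to 19.2 on the other 4. On all 6 MLO-Y4 arrays 1474 spots were above the limit, and 1097 were above it on none. All values below are intensities after quantile normalization, with a floor of 6.08 units, and group levels are geometric means of 3 arrays. Differences are high minus low on the log2 scale with the standard error (SE) of a limma fit over all 12 arrays.

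The number an array carries moved its values more than its density did. The first principal component of the 6 arrays, with 51.9% of their variance, set both arrays numbered 1 (-62.5 and -66.5) apart from the other 4 (21.3 to 37.8). The second, with 17.9%, set the arrays numbered 2 (32.4 and 36.6) apart from those numbered 3 (-28.4 and -33.9). Over the 1474 detected spots, the median absolute log2 difference was 0.45 between densities of 1 number and 0.81 between numbers of 1 density. The arrays were therefore also compared as 3 same-numbered pairs. Where a gene is said to be higher in all 3 pairs, the high array exceeded the low array of its own number each time.

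The label of an osteocyte line was set against 11 measured spots for osteocyte markers. Of these, 7 were above the limit on all 6 arrays, among them Pdpn, which encodes the podoplanin of osteocyte processes. Pdpn read 2170, 1833 and 576 units in low arrays 1 to 3 and 1979, 1707 and 323 in high arrays 1 to 3, so the third pair was the dimmest in both groups. Capg, an actin-capping protein of osteocytes, averaged 735 units in low and 553 in high, and the chemokine receptor gene Ackr3 559 and 619. Phex, an endopeptidase gene of mineralising osteocytes, was above the limit on none of the 6 arrays. The late osteocyte markers Dmp1, Mepe and Sost were not analysed here. Markers of some other cells were mostly dim. Above the limit on all 6 arrays was 1 of 10 macrophage and osteoclast spots, 1 of 8 endothelial spots and 1 of 12 chondrocyte spots. The osteoblast and bone matrix list was brighter, and 17 of its 25 spots exceeded the limit on each of the 6 arrays. The same held for 3 of 12 muscle marker spots and 1 of 5 adipocyte marker spots. These counts do not set the line apart from osteoblasts. In such bulk RNA, fewer cells of a type and less RNA per cell cannot be told apart.

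No spot passed an adjusted p of 0.05 between high and low, in either direction (0 of 5030, 0%). The same was so with the array number as a block over 12 arrays or over the 6 MLO-Y4 arrays. The smallest adjusted p was 1 without the block, 1 with it over 12 arrays and 0.804 with it over 6. At an unadjusted p under 0.05, limma counted 116 spots (2.31%), 67 higher and 49 lower in high, where 251.5 would be expected by chance. With arrays scaled to equal medians in place of quantile normalization the count was also 116, with 41 higher and 75 lower, and the median difference of the 1474 detected spots was -0.13 rather than -0.03. The block fits counted 156 (3.1%) and 255 (5.07%). The smallest p was 0.000341 in limma, for the Ras-family gene Mras, at 6.08, 6.58 and 9.5 units in low and 28.7, 33.1 and 35.5 in high. All its low values, and that of high array 1, were below the limit of their array, so its fold is loosely measured. The high arrays of all spots exceeded all low arrays in 121 cases (2.41%) and lay below all of them in 106 (2.11%). In all 3 pairs 483 spots were higher (9.6%) and 501 lower (9.96%). Over the 1945 spots above the limit on all arrays of a group, these shares were 13.8% and 17.5%. Spots at the floor on both arrays of a pair differ by 0 and count as neither, which lowers the shares of all spots. No gene below changed by the test: the limma adjusted p of each is 1. Differences are therefore given with their SE from the fit without the block, which leaves the pairing by number aside. Over the 1474 detected spots the median SE was 0.58 in that fit and 0.44 with the block over 12 arrays. An exact permutation test of 3 unpaired arrays against 3 cannot go below 0.1, and the limit of one within the 3 pairs is higher.

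**Figure D1:**
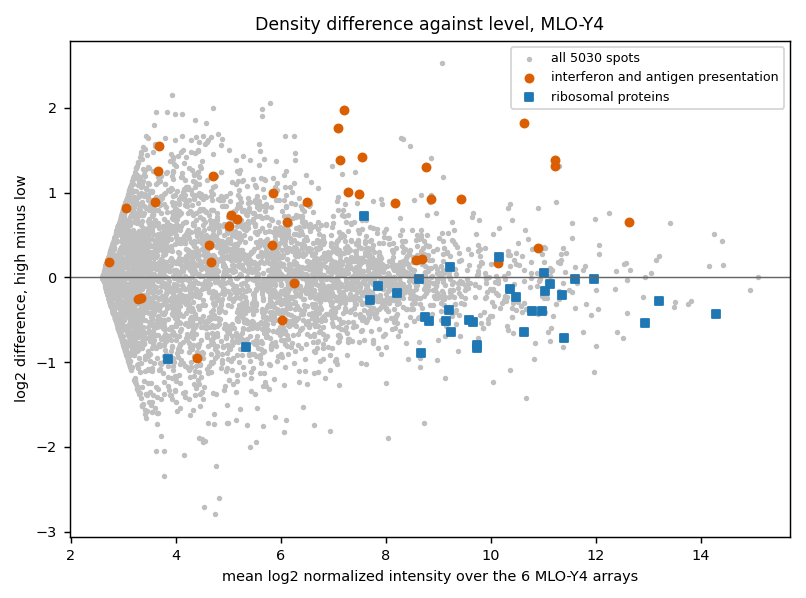
Each grey point is 1 of 5030 spots, with its mean log2 normalized intensity over the 6 MLO-Y4 arrays on the horizontal axis and the log2 difference, high minus low, on the vertical axis. Orange circles are the 38 spots of the interferon and antigen presentation list (median 0.85) and blue squares the 34 ribosomal protein spots (median -0.39), and both are spread over a range of levels.

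The interferon and antigen presentation genes read higher in dense MLO-Y4 cultures as a group. Their list, like the others, was chosen with earlier results of these data known, so its counts describe the data and are no independent support. Of 38 measured spots for 37 genes, 33 had a positive difference and 5 a negative one, against 2461 (48.9%) and 2470 (49.1%) of all spots. The median difference was 0.85, and 0 over all spots, with members from -0.95 to 1.97. It was nearly the same in each pair, 0.89, 0.91 and 0.91 for numbers 1, 2 and 3. In all 3 pairs 18 members were higher and 1 lower, beside 9.6% and 9.96% of all spots. The groups stood apart with high above low for 6 members and with high below low for 0, beside 2.41% and 2.11% of all spots. No member passed the adjusted test, and 7 had an unadjusted p under 0.05, all higher (1.33% of all spots): Ifit3, Gbp2, Usp18, Irf7, Ifi204, B2m and Psmb9. The summed level of the list ran from 15490 to 18820 units in the low arrays and from 27440 to 32410 in the high arrays, so the sums did not overlap. Bright members weigh most in such a sum. The sums of the muscle marker list did not overlap either, at 4269 to 5488 units in low and 3215 to 4079 in high. With no floor on low values the median of the interferon list was 0.54. Of the 38, 25 exceeded the limit on each array of at least 1 group. Of these 25, 16 were higher and 1 lower in all 3 pairs, beside 13.8% and 17.5% of such spots. Macrophage and osteoclast markers, whose cells also express many of these genes, summed to 249 to 428 units over 10 spots in low and 254 to 551 in high, and endothelial markers to 598 to 969 units over 8 spots in low and 843 to 1250 in high. Among them the leukocyte marker Ptprc was above the limit on none of the 6 arrays. Eng, the 1 endothelial spot above it on all 6, gave most of the endothelial sums. It read 896, 491 and 696 units in low and 927, 626 and 1063 in high. Ctsk, the 1 such macrophage and osteoclast spot, read 261, 154.5 and 112 units in low and 457, 98.9 and 101 in high. The part of macrophage, osteoclast or endothelial cells in the result was not tested.

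**Figure D2:**
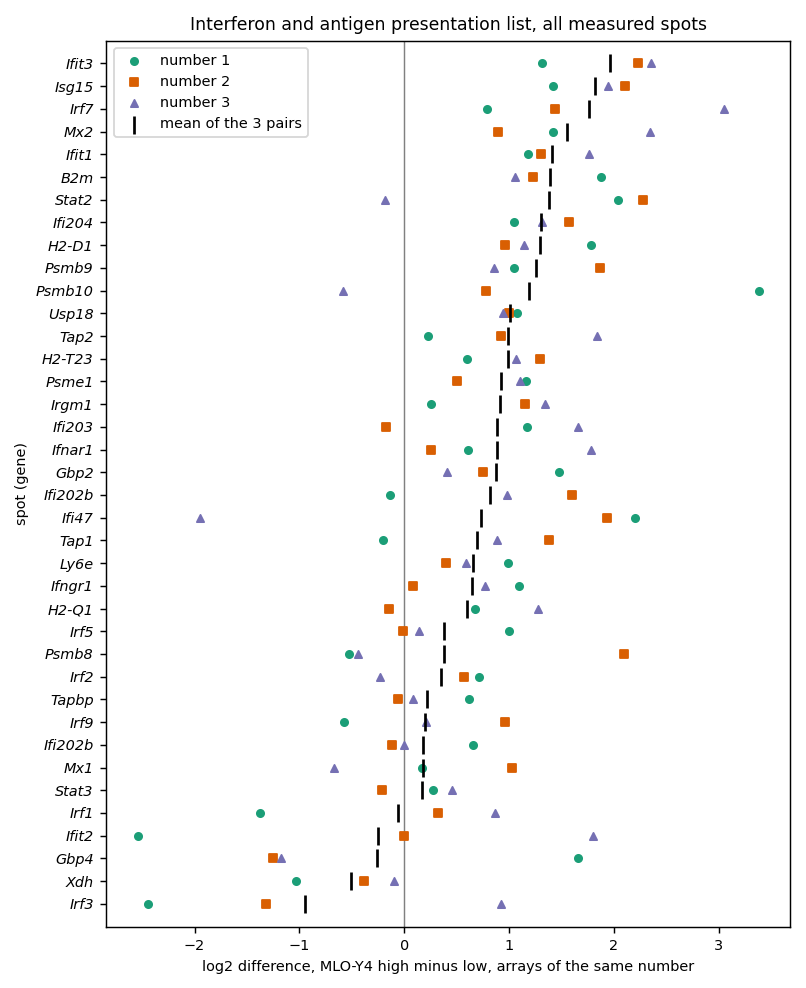
The log2 difference of each same-numbered pair of MLO-Y4 arrays, high minus low, is shown on the horizontal axis for the 38 spots of the interferon and antigen presentation list, ordered by their mean (black bar). Circles, squares and triangles are numbers 1, 2 and 3, and 18 spots have all 3 symbols to the right of 0 while 1, Xdh, has all 3 to the left.

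Among the antiviral effectors, Ifit3, whose product binds viral RNA together with other Ifit proteins, stood at 156, 64.6 and 41.3 units in low arrays 1 to 3 and at 388, 303 and 212 in high arrays 1 to 3. Every high array exceeded every low array, and the group means were 74.6 and 292 units. The difference was 1.97 (SE 0.45), a 3.91-fold higher level. Its relative Ifit1 read 192, 155 and 50.3 units in low and 434, 381 and 171 in high, which overlapped although each pair was higher (1.41, SE 0.81). Isg15, the ubiquitin-like tag that infected cells attach to proteins, read 933, 684 and 950 units in low and 2496, 2946 and 3651 in high. These groups lay far apart in the MLO-Y4 arrays, yet the pooled spread over all 12 arrays left an SE of 0.97 on a difference of 1.82. Usp18, the protease that takes Isg15 off its targets, read 127, 138 and 76.5 units in low and 268, 277 and 148 in high. The difference of 1.01 (SE 0.34) was close to a doubling in each of the 3 pairs, which differed by 1.08, 1 and 0.95. Ube2l6, which encodes the enzyme that hands Isg15 on to proteins and was not on the list, averaged 27.8 units in low and 82.5 in high (1.57, SE 0.52), with the low level above the limit on 2 of 3 arrays.

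Gbp2, a guanylate-binding GTPase gene, read 162, 226 and 268 units in low and 451, 380 and 355 in high. The groups did not overlap, but the order of the numbers was opposite in them, so the pair differences ran from 1.48 for number 1 to 0.41 for number 3 (0.88, SE 0.29). Ifi204, of a family of DNA-sensing proteins whose genes are close copies and may share signal on a spotted probe, read 1562, 1450 and 1572 units in low and 3227, 4314 and 3899 in high. It was 2.48-fold higher (1.31, SE 0.47), with little spread among the low arrays. Of the transcription factors of the pathway, Irf7, which amplifies type I interferon production, read 204, 73.3 and 27.5 units in low and 353, 199 and 228 in high. Each pair was higher (0.79, 1.44 and 3.05) but low array 1 lay just above high array 2 (1.76, SE 0.6). Stat2, a transcription factor of the type I interferon response, read 115, 50.2 and 112 units in low and 471, 244 and 99.1 in high. It was higher in pairs 1 and 2 and slightly lower in pair 3 (1.38, SE 0.62).

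The list also holds genes of the MHC class I pathway, some higher in all 3 pairs and some not. B2m, the light chain needed by every class I molecule, read 1261, 927 and 2753 units in low and 4632, 2170 and 5725 in high. Its pairs differed by 1.88, 1.23 and 1.06, while low array 3 lay above high array 2 (1.39, SE 0.51). H2-D1, a class I heavy chain whose gene has close copies, read 223, 274 and 346 units in low and 766, 536 and 766 in high, with no overlap (1.3, SE 0.67). Psme1, a subunit of the proteasome activator that trims peptides for class I, averaged 502 units in low and 951 in high (0.92, SE 0.43). The immunoproteasome gene Psmb9 was dim, at 8.23 units in low and 19.6 in high, and above the limit on 1 and 2 arrays (1.25, SE 0.49). H2-Q1 (0.60, SE 0.69), Tap1 (0.69, SE 0.51), Tapbp (0.22, SE 0.52), Psmb8 (0.38, SE 0.71) and Psmb10 (1.19, SE 0.73), of the same pathway, were each lower in at least 1 pair. Of the members with a negative difference, Irf3, which starts interferon production, averaged 29.5 units in low and 15.3 in high (-0.95, SE 0.83), with 3 of the 6 arrays above the limit. Xdh, xanthine dehydrogenase, was the 1 member lower in all 3 pairs, at 77.5 and 54.6 units (-0.5, SE 0.51). Isg15, Ifit1, Ifi204, H2-D1, Stat2, Psme1, Psmb9, Psmb10, H2-Q1, Tap1, Tapbp, Psmb8, Irf3, Xdh and Mras, and below Fen1, Birc5, Fau, Tnnt1, Cdh11, Cldn3 and Ywhaz, were named after their values were seen.

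The printed promoters may be set beside these values. Of the 18 genes higher in all 3 pairs, 13 had a window and 7 held GAAANNGAAA in the 250 bases before the start (53.8%). Of the other 19 measured genes 15 had a window and 3 held it (20%). The 3 overlapping copies of Isg15 and the 2 of Ifit3 belong to the members with the largest differences, but Irf7, at 1.76, had none in its window. These counts are a description, with no test.

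**Figure D3:**
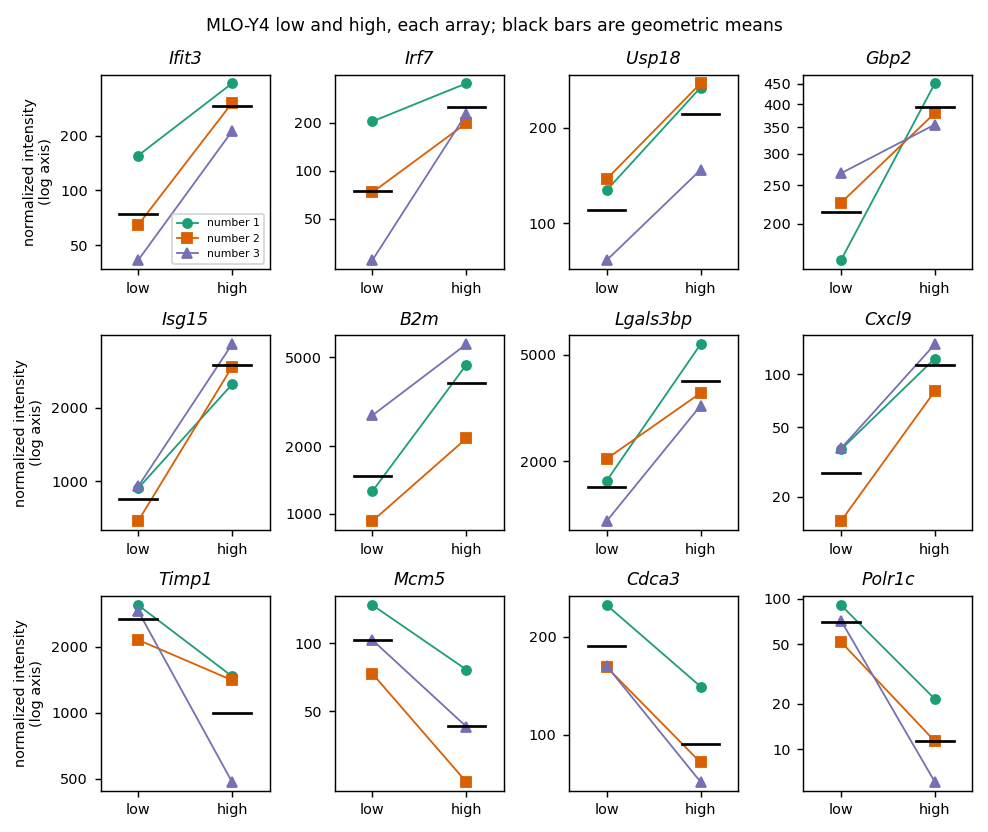
Normalized intensity, on log axes with their own range, is plotted for 12 genes in the low and high MLO-Y4 arrays, with arrays of 1 number joined by a line and black bars at the geometric means. In the upper 8 panels (Ifit3, Irf7, Usp18, Gbp2, Isg15, B2m, Lgals3bp and Cxcl9) all 3 lines go up from low to high, and in the lower 4 (Timp1, Mcm5, Cdca3 and Polr1c) all 3 go down.

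Outside that list, the genes named for a higher level were picked by the smallest block p among detected spots with 1 sign in all 3 pairs, so their direction in the pairs was set by the choice. The interferon list holds 4 of the 15 (Ifit3, B2m, Usp18 and Irf7). Of the 1945 spots above the limit on all arrays of a group, it holds 25. Lgals3bp, Sp100, Ube2l6 and Cxcl9, which are not on it, are also known to be induced by interferon. No like count was made for the 15 lower genes, so these numbers describe the pick and are no support. Lgals3bp, a secreted glycoprotein that binds galectins, read 1690, 2042 and 1194 units in low and 5478, 3598 and 3227 in high, with no overlap (1.32, SE 0.46). Cxcl9, a chemokine for T cells, read 37.3, 14.5 and 37.7 units in low, above the limit on 2 arrays, and 123, 80.3 and 149 in high. Its difference was 2.06 (SE 0.72). Vcam1, an adhesion molecule that leukocytes bind, read 352, 354 and 379 units in low and 964, 756 and 764 in high, with no overlap and little spread in either group (1.19, SE 0.47). Sp100, of nuclear bodies, averaged 26.4 units in low, above the limit on 1 array, and 68.7 in high (1.38, SE 0.55).

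The other genes picked for a higher level had unlike roles. Tcn2, the carrier of vitamin B12 into cells, read 104, 8.83 and 19 units in low and 195, 44.5 and 106 in high, which overlapped, with 2 low arrays above the limit (1.9, SE 0.81). Ly96, the partner of the endotoxin receptor Tlr4, averaged 38.3 units in low, above the limit on 2 arrays, and 121 in high (1.66, SE 0.96). Ppargc1a, a coactivator of mitochondrial genes, read 21, 8.83 and 16.1 units in low, above the limit on 1 array, and 79.9, 34.8 and 33.8 in high. Its difference was 1.66 (SE 0.56). Dhcr7, the last enzyme of cholesterol synthesis, averaged 59 and 112 units (0.93, SE 0.39), the transcription factor gene Osr1 293 and 575 (0.97, SE 0.53) and the centrosomal gene Cep250 25.9, above the limit on 2 low arrays, and 52.7 (1.03, SE 0.46).

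The chemokine, cytokine and acute phase list, which holds Lgals3bp, Vcam1 and Cxcl9, had members on both sides. Its 42 spots had a median of 0.12, with 11 higher and 7 lower in all 3 pairs (9.6% and 9.96% of all spots). The groups stood apart for 5 higher and 1 lower (2.41% and 2.11% of all spots), 4 higher and 0 lower had an unadjusted p under 0.05, and 0 passed the adjusted test in limma. Cfb, complement factor B, was on it at 29.1 units in low, above the limit on 1 array, and 81.8 in high (1.49, SE 0.59).

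Polr1c, a subunit shared by RNA polymerases I and III, had the most negative difference of the 15 genes picked for a lower level. It read 90.6, 51.7 and 71.6 units in low and 21.6, 11.3 and 6.08 in high. The groups did not overlap and the difference was -2.61 (SE 0.54), but in high the spot was above the limit on 1 of 3 arrays. Eif2ak4, the kinase that senses amino acid shortage, read 64.7, 53.8 and 28.3 units in low and 13.8, 15.5 and 8.25 in high (-1.94, SE 0.54). Vps35, of the retromer that recycles endosomal cargo, averaged 48.4 and 14.6 units (-1.73, SE 0.53) and the SNARE gene Vti1b 37.3 and 13 (-1.52, SE 0.6). These 3 were also above the limit on 1 high array each, and so were the chromatin remodeller gene Baz1b (58.5 and 12.5 units; -2.22, SE 0.77), the kinase gene Melk and Anapc1 of the anaphase-promoting complex. Their folds are therefore loosely measured.

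The rest of the 15 were above the limit on at least 2 arrays of each group. Timp1, the inhibitor of matrix metalloproteinases, read 3098, 2150 and 2911 units in low and 1467, 1408 and 483 in high. Every high array lay below every low array, and high array 3 was the lowest by far (-1.43, SE 0.46). Ror2, the receptor for Wnt5a, read 113, 82.8 and 67.6 units in low and 37.3, 53.3 and 40.9 in high, also with no overlap and above the limit on 2 high arrays (-0.98, SE 0.34). Nt5e, the ectoenzyme that makes adenosine from AMP, averaged 61.8 and 33 units (-0.91, SE 0.39). Acsl4, an acyl-CoA synthetase gene, averaged 56.8 and 17.3 units (-1.72, SE 0.77), Ddx6, an RNA helicase gene, 93.5 and 27.7 (-1.76, SE 0.79), and Ewsr1, an RNA-binding protein gene, 897 and 491 (-0.87, SE 0.62), with Acsl4 and Ddx6 above the limit on 2 high arrays. All of these were lower in each pair, as the choice required.

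Genes of DNA replication and mitosis tended to lower readings. Of 48 spots, 32 had a negative difference and 16 a positive one, with a median of -0.17. In all 3 pairs 11 were lower and 2 higher, beside 9.96% and 9.6% of all spots. Of its 37 spots above the limit on all arrays of a group, 10 were lower and 2 higher, beside 17.5% and 13.8% of such spots. Mcm5, a subunit of the replicative helicase, read 148, 73.3 and 103 units in low and 76.4, 24.3 and 42.7 in high, which overlapped (-1.27, SE 0.47). Mcm4, of the same helicase, read 83.4, 41.3 and 42.7 units in low and 13.8, 28.7 and 16.3 in high, without overlap but above the limit on 1 high array (-1.5, SE 0.52). Cdca3, a trigger of entry into mitosis, read 250, 161 and 163 units in low and 141, 82.3 and 71.8 in high, without overlap (-0.99, SE 0.46). Cdc25c, the phosphatase that starts mitosis, averaged 45.3 and 21.6 units, above the limit on 2 high arrays (-1.06, SE 0.5). The 2 members higher in all pairs were Fen1, a flap endonuclease gene (49.5 and 85.5 units; 0.79, SE 0.67), and Birc5, which encodes survivin (312 and 385 units; 0.3, SE 0.39). The list's median was 0.02 without high replicate 2 alone and -0.09 without both arrays numbered 2.

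Inhibitors of the cycle showed no common direction. The 23 spots of the arrest and p53 list had a median of 0.04, with 3 higher and 3 lower in all pairs (9.6% and 9.96% of all spots). The 3 higher ones and 1 of the lower ones also had no overlap (2.41% and 2.11% of all spots). Tob1, an antiproliferative gene, read 1164, 992 and 786 units in low and 2235, 1485 and 1510 in high (0.82, SE 0.41). Cdkn1b, which encodes the inhibitor p27, read 130, 123 and 135 units in low and 168, 184 and 216 in high (0.54, SE 0.42). The low arrays of Cdkn1b differed little from each other. Cdkn2c, which encodes the inhibitor p18, read 6.08, 14.5 and 8 units in low, above the limit on 1 array, and 63.2, 17.5 and 35.5 in high (1.93, SE 0.72).

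Ribosomal protein genes read slightly lower. Of 34 spots 30 had a negative difference, with a median of -0.39. In all 3 pairs 15 were lower and 1 higher (9.96% and 9.6% of all spots). Of the 32 above the limit on all arrays of a group, 14 were lower and 1 higher (17.5% and 13.8% of such spots). The first pair had the lowest median, -0.57, against -0.19 and -0.16 in the others, and without low replicate 1 the median was -0.08. Rpl7a read 557, 488 and 635 units in low and 437, 328 and 190 in high, with no overlap (-0.89, SE 0.39). Rpl29, at 23230 units in low and 17220 in high, differed by -0.43 (SE 0.33), and Rpl3 by -0.83 (SE 0.65, 1145 and 643 units). The 1 member higher in all pairs was Fau (0.24, SE 0.31).

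**Figure D4:**
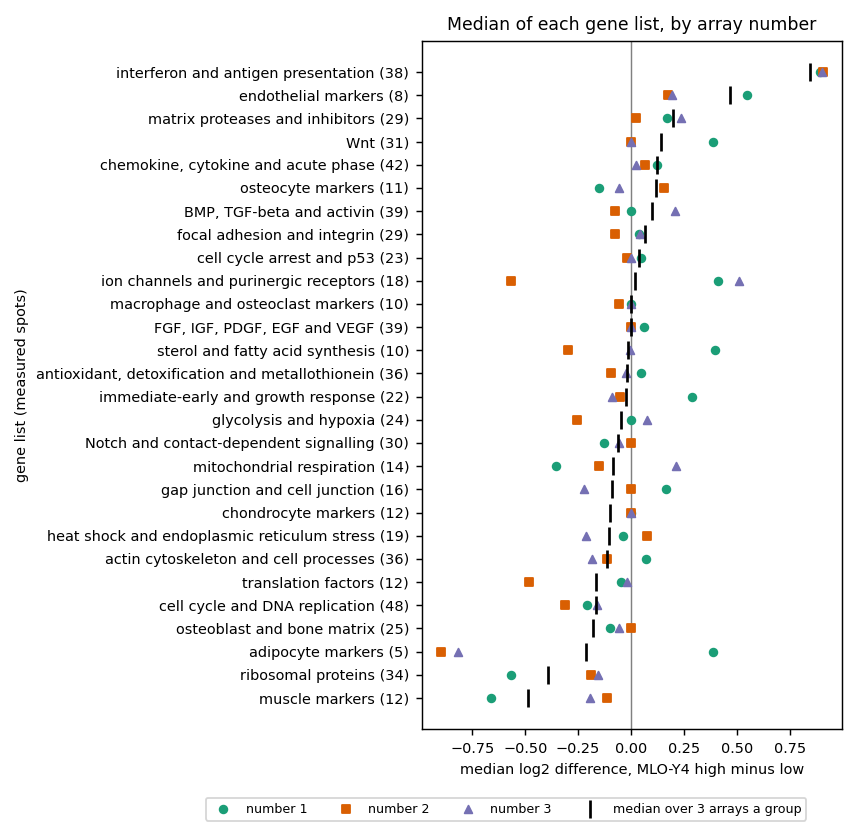
The median log2 difference, high minus low, is plotted for 28 gene lists, with the number of measured spots in parentheses; the circles, squares and triangles are same-numbered pairs 1, 2 and 3 and the black bar is the median of the differences between group means. The interferon and antigen presentation list has all 3 pairs between 0.89 and 0.91, and the symbols of most other lists lie on both sides of 0 or close to it.

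The list of muscle markers, which also holds genes of contractile cells, had 5 positive and 7 negative differences over 12 spots. Acta2, smooth muscle actin, read 2946, 2496 and 2946 units in low and 1596, 1786 and 2170 in high, with no overlap (-0.6, SE 0.31). Tagln, an actin-binding protein of the same cells, read 1968, 1231 and 1676 units in low and 1344, 927 and 1221 in high, lower in each pair but with overlap (-0.47, SE 0.34). Cnn1, calponin, averaged 66 and 42.1 units, above the limit on 2 high arrays (-0.65, SE 0.71). With the dim troponin gene Tnnt1 (-0.83, SE 0.57) these were the 4 of 12 spots that were lower in all pairs (9.96% of all spots). None was higher in all (9.6% of all spots), and the median was -0.49. That median was -0.09 without replicate 1 and -0.09 with the floor at the 50th percentile.

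Adhesion genes were divided. Of 29 focal adhesion and integrin spots 6 were higher and 6 lower in all 3 pairs (9.6% and 9.96% of all spots), with a median of 0.07. Of the 21 above the limit on all arrays of a group, 4 were higher and 6 lower (13.8% and 17.5% of such spots). Itgb1, the common beta chain of matrix receptors, read 87.9, 130 and 97 units in low and 254, 136 and 168 in high, with the lowest high array just above the highest low array (0.8, SE 0.34). Itga5, its partner in the fibronectin receptor, read 1252, 539 and 904 units in low and 825, 157 and 404 in high, lower in each pair (-1.18, SE 0.62). The gap junction and cell junction list could say little, because 1 of its 16 spots, the tight junction scaffold gene Tjp1, was above the limit on all arrays of a group. Tjp1 read 140, 99 and 26.7 units in low and 119, 68 and 67.6 in high (0.19, SE 1.01). Cdh11, the cadherin of osteoblasts, and the claudin gene Cldn3 were the 2 members higher in all pairs (9.6% of all spots), at 6.89 against 16 units and 13.8 against 24.7 units. Cdh11 was above the limit on 0 low arrays and 2 high arrays, and Cldn3 on 1 low array and 2 high arrays. Gja1, whose product connexin 43 forms the gap junctions of osteocytes, was looked for, but no spot was found under that symbol.

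Bone matrix and growth factor genes gave small or mixed values. The 25 osteoblast and bone matrix spots had a median of -0.18, with 3 higher and 4 lower in all pairs (9.6% and 9.96% of all spots). Ank, the pyrophosphate transporter gene, averaged 318 units in low and 200.4 in high (-0.67, SE 0.36), the collagen gene Col5a1 328 and 175 (-0.91, SE 0.54) and Twist1, a repressor of osteoblast differentiation, 30.5 and 13.6, above the limit on 1 high array (-1.17, SE 0.57). Alpl, alkaline phosphatase, read 500.3, 409 and 105 units in low and 468, 280 and 127 in high, which overlapped almost wholly (-0.13, SE 1). Bglap, the osteocalcin whose promoter drives T antigen in this line, read 6.08, 191 and 45.3 units in low and 19.2, 466 and 101 in high. It read higher in each pair, but the numbers differed from each other far more than the densities did (1.37, SE 1.4). Bglap was above the limit on 2 arrays of each group. Both arrays numbered 1 were below it, so that pair has no measured direction. Ibsp, bone sialoprotein, was above the limit on 1 of 6 arrays. Vegfa, the angiogenic growth factor, averaged 2738 units in low and 1756 in high (-0.64, SE 0.55), and Inhba, the activin A subunit, 185 and 94.9 (-0.96, SE 0.63), each lower in all 3 pairs.

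Genes with more than 1 spot show how far spots of a gene can differ. The 3 spots of Gapdh had differences from -0.15 to 0.14, those of Actb from -0.26 to 0.76 and those of Ywhaz from -0.47 to 0.68, all above the limit on the 6 arrays. A log2 difference of this size in 1 spot is thus not larger than the spread between spots of the same gene.

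The 2T3 arrays allow the same comparison in an osteoblast line, with the difference between the density differences tested in the same fit. Low 2T3 array 3 was dim, with a total intensity of 212491 and 50.9% of its spots above the limit. On the other 2T3 arrays the total ran from 1135593 to 1680311. The dim array entered the joint normalization and the SE of every gene, and its part in these values was not tested. Between C0 and low 2T3, the interferon list had a median of -0.06, and the median of the difference between the lines was 0.85. Over the 17 spots above the limit on all 6 2T3 arrays, the medians were 0.88 in MLO-Y4, -0.13 in 2T3 and 0.82 for the difference. No spot passed that test (0 of 5030, smallest adjusted p 1), and 0 passed for density within 2T3, where 266 had an unadjusted p under 0.05 (5.29%). At an unadjusted p under 0.05 it counted 145 spots (2.88%), 5 of the interferon list and 0 of those 17. They were Ifit3 (1.97, SE 0.64), Psmb9 (1.96, SE 0.69), Psmb10 (2.64, SE 1.03), Gbp2 (1.03, SE 0.41) and Irf7 (1.91, SE 0.85). Ifit3, Usp18, Gbp2 and Irf7 were above the limit on none of the 6 2T3 arrays, so their density difference there has no measured size and the difference between the lines nearly repeats the MLO-Y4 value. B2m was measured on all 6, at 855, 612 and 1060.0 units in C0 and 456, 749 and 851 in low (0.31, SE 0.51), and its difference between the lines was 1.08 (SE 0.73). Vcam1 differed by 1.19 in each line, with a difference between them of -0.01 (SE 0.67). Lgals3bp differed by 1.18 in 2T3 (SE 0.46), and the lines by 0.13 (SE 0.65). Tcn2, above the limit on 3 of the 6 2T3 arrays, differed there by 2.01 (SE 0.81), and the lines by -0.10 (SE 1.15). Osr1, measured on all 6, differed by -0.06 in 2T3 (SE 0.53). Of the genes that read lower in dense MLO-Y4, Polr1c had 141, 109 and 133 units in C0 and 52.5, 165 and 128 in low 2T3, and the lines differed by -2.9 (SE 0.76). For Mcm5 that difference was -1.6 (SE 0.66) and for Cdca3 it was -1.73 (SE 0.66). The ribosomal list had a negative median in both lines (-0.53 in 2T3), and the cell cycle list had opposite signs (0.26 in 2T3).

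**Figure D5:**
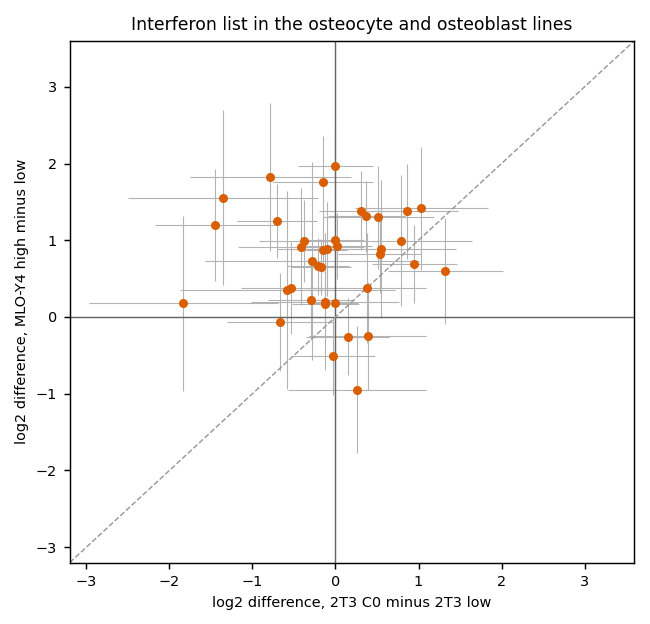
For the 38 spots of the interferon and antigen presentation list the log2 density difference in 2T3 (C0 minus low) is on the horizontal axis and that in MLO-Y4 (high minus low) on the vertical axis, with bars of 1 SE from the limma fit and a dashed line where they are equal. The points centre near -0.06 across and 0.85 up, and the bars of many reach the dashed line.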

How the data were processed

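The deposited values are spot intensities on a linear scale, whole numbers read as background-subtracted from the values below 0; the sources used here do not name the image software or background method. Genes were named through the platform's probe table: 4633 of 5030 spots had 1 symbol, 5 had several and 392 were unnamed. The 12 arrays were quantile normalized together, floored at their 25th percentile (6.08 units) and log2 transformed. limma 3.58.1 in R 4.3.3 fitted 4 group means (8 residual degrees of freedom), with Benjamini-Hochberg adjustment over 5030 spots at 0.05; it was tested on simulated data.

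The array number was a second view, as a block. Deviations from group means of same-numbered MLO-Y4 arrays correlated (0.63, 0.48 and 0.50) and those of different numbers ran from -0.47 to 0.12, so the numbers were taken to pair them. In 2T3 the values were 0.04, 0.06 and 0.15.

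Members and the 28 gene lists (971 symbols, 635 measured) were chosen with earlier results of these data known. Genes were named where detected on all arrays of a group: those past the threshold, filled to 15 a direction by block p among spots of 1 sign in 3 pairs, up to 3 a list by p, and some always. Names outside this rule are listed in the text.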

Additional observations from a re-analysis of the deposited data

How the results depend on the processing

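Over 81 named spots, up to 18 alternatives were run (scaling, floor, filter, variance prior, 6 arrays alone, replicate block, arrays left out). Of 1445 values 1424 kept their direction and side of the threshold, and 73 of the 81 spots never changed sign. Much of this was fixed in advance. The filter, variance prior, 6 arrays alone and replicate block leave each log2 difference as it is, so they could not turn a sign. Genes picked for 1 sign in all 3 pairs could not turn when a pair was left out. The count of spots higher in high was 0 under every one of the alternatives, and that of spots lower in high was 0 except with the floor at the 50th percentile, where it was 1. That spot was Etv1, a transcription factor gene (-0.23, SE 0.02, limma adjusted p = 0.00613), with 9 of 12 arrays at the floor of 24.3 units; with the floor at the 25th percentile it was -0.79 and did not pass. With the replicate block the counts were 0 over 12 and over 6 arrays, and 0 over 12 arrays for the difference between the lines, so the block changed none of these counts. Leaving out arrays gave 0 calls each time. The 81 spots leave out some that the naming rule picked or the text cites, such as those of Actb and Gapdh. An Actb spot at -0.03, with pair differences of 0.08, 0.36 and -0.54, turns sign without replicate 3. Within the 81, signs turned for 8 spots. Without 1 array or 1 pair, Pdpn ran from -0.95 to 0.48, Ackr3 from -0.20 to 0.36, Alpl from -0.83 to 0.38, Ibsp from -1.002 to 1.11, Phex from -0.044 to 1.36, Tjp1 from -0.52 to 0.67, Tapbp from -0.26 to 0.49 and Psmb8 from -0.49 to 1.12. Psmb8 was -0.14 with the floor at the 50th percentile. The cause was not tested. The interferon median ran from 0.54 with no floor to 0.92 with detected-spot scaling or filtering, and was 0.82, 0.88 and 0.70 without replicates 1, 2 and 3. Dim spots limit what could be measured: 1097 of 5030 were above the limit on no MLO-Y4 array, and the arrays numbered 1 had the highest limits.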
